A study of Mus musculus with 6 samples.

Results

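The genes described here are 10 markers of resident and alternatively activated macrophages, *Chi3l3*, *Chi3l4*, *Chi3l1*, *Retnla*, *Arg1*, *Mrc1*, *Cd163*, *Lyve1*, *Cd68* and *Emr1*. They were found by their exact gene name among the 55681 probes other than controls on an Agilent mouse array, which gave 11 probes, 2 of them for *Emr1* and 1 for each other gene. The set was chosen by the measured difference of *Chi3l3* between the diets in these same hearts, with the other macrophage genes set beside it by name, so the values below are descriptions and carry no test. RNA of whole hearts came from male C57BL/6 mice for which the labels name no transgene, 3 fed a normal diet (ND, standard chow) and 3 fed a high-fat diet (HFD, 60% of kcal from fat), for 4 months from 4 weeks of age. Each heart was read on 1 array in a single colour. The methods call the adult mice littermates, and the labels do not give the litter of each heart. In RNA of a whole organ, fewer macrophages and less RNA per macrophage cannot be told apart.

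Macrophages live in the healthy heart between the muscle cells, where they take up debris and spent mitochondria. In mice, the cytokines interleukin 4 and interleukin 13 act through the transcription factor STAT6 to bring on a set of genes known as alternative activation. It includes the secreted chitinase-like lectin *Chi3l3* (Ym1), its close relative *Chi3l4* (Ym2), the resistin-like protein *Retnla*, the arginine-cleaving enzyme *Arg1* and the mannose receptor *Mrc1*. *Cd163*, the receptor for haemoglobin bound to haptoglobin, and *Lyve1*, a receptor for hyaluronan, mark resident macrophages, and *Lyve1* is also a marker of lymphatic vessels. *Emr1* and *Cd68* are used as general macrophage markers. RefSeq now names 4 of these genes *Chil3*, *Chil4*, *Chil1* and *Adgre1*.

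Each probe is 60 bases long, and the positions in the files are those of mm9. The last 30 bases are shown for the probes on which the results turn, and for *Chi3l4* because its gene lies next to that of *Chi3l3*. Capitals mark AATAAA, the hexamer of the polyadenylation signal, which was in the *Chi3l3* probe and in none of the other 10.
Chi3l3, chr3:105950485-105950544, minus strand: atgcttgtttcttgctctcacAATAAAttc
Chi3l4, chr3:106006584-106006643, minus strand: cacaaatgaacaaggactcctggcttactt
Cd163, chr6:124270436-124270495, plus strand: gcagtagcaatatgtctccaaccactgtgg
Lyve1, chr7:117994171-117994230, minus strand: tagctctcattcttttccagcaagaagaac
Emr1, first probe, chr17:57620350-57620409, plus strand: ctgaccttagctcccattcccagacttctg
Emr1, second probe, chr17:57622868-57622927, plus strand: tcaagcagtaaacacagactaactcttaat
The longest run of bases that the whole *Chi3l3* and *Chi3l4* probes share is 7. The exons and UTRs under the probes were not analysed here.

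The stretches of 250 bases before the start of *Chil3*, *Chil4* and *Retnla* are shown because these genes are known targets of STAT6, and *Chi3l3* and *Retnla* differed in pattern between the hearts (RefSeq, GRCm38.p6). Capitals mark the STAT-type motif TTCNNNGAA or the STAT6-type motif TTCNNNNGAA, searched on both strands, on each of which they read the same. The motifs overlapped in none of the 3 stretches.
Chil3, chr3:106167565-106167814, minus strand: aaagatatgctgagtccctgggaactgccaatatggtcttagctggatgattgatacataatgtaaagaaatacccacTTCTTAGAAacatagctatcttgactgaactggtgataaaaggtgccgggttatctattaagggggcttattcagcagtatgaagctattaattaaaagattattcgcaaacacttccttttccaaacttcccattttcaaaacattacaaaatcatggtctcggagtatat
Chil4, chr3:106219480-106219729, minus strand: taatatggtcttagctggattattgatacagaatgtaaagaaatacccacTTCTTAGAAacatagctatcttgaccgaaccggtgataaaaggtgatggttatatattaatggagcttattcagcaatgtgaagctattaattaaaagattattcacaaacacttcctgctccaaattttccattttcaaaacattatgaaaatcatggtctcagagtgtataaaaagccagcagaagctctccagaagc
Retnla, chr16:48842359-48842608, plus strand: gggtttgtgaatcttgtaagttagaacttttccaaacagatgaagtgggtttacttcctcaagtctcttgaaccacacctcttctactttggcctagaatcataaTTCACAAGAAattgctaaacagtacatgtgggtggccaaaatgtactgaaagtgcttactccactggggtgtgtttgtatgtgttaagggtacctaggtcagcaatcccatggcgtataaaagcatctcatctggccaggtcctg
*Chil3* and *Chil4* held the same 9 letters, TTCTTAGAA, which began 172 and 200 bases before their starts, and their stretches were identical at 201 of 221 aligned bases (91.0%). *Retnla* held the STAT6-type motif, TTCACAAGAA, 145 bases before its start. Of 32851 such stretches in the table, 7.02% held the STAT-type motif and 5.85% the STAT6-type motif, and the table listed 7 of the 10 genes. Of these 7, 2 held the STAT-type motif and 1 the STAT6-type motif. *Mrc1*, also named above as part of alternative activation, held neither, nor did *Chi3l1*, *Cd163* and *Cd68*, and their stretches are not shown. A match of letters is a description and no evidence of binding.

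Levels are given as log2 of the spot intensity over the 75th percentile of its array, so that 0 is the intensity at that percentile and 1 unit is a doubling. An array had 49.2% to 53.0% of its probes well above background, and the 75th percentile lay between 453 and 544 intensity units. No spot was saturated. Correlations between arrays (Pearson's r) were 0.990 to 0.995 within a diet and 0.989 to 0.994 between diets. All 8 cardiomyocyte genes listed, among them *Myh6* and *Tnnt2*, were well above background in every heart, with a mean log2 level of 8.23 to 8.47. The 27590 probes well above background in all hearts of at least 1 diet were fitted in limma (two-sided, p-values adjusted by Benjamini-Hochberg). With 3 arrays a diet, every mean is imprecise. Of the 11 marker probes, 7 were well above background in all 6 hearts, 2 in some and 2 in none, and 8 probes of 7 genes were fitted.

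*Chi3l3* was lower in HFD than in ND hearts and varied more among the ND hearts than any other marker probe. Its level was −2.76 in ND 1, −0.65 in ND 2 and −0.50 in ND 3, against −3.43 in HFD 1, −3.25 in HFD 2 and −4.09 in HFD 3. In intensity units the ND hearts read 71.9, 308 and 338 and the HFD hearts 48.0, 47.8 and 31.8. The diets did not overlap, but ND 1 lay 0.48 above the highest HFD heart and 2.11 below the next ND heart. The ND mean was −1.30 ± 1.27 (SD, n = 3) and the HFD mean −3.59 ± 0.45, a log2 difference of −2.28 (SE 0.64), or 20.5% of the ND level. With normexp background correction, which raises dim signals, the difference was −1.42.

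The other chitinase-like members were close to the background. *Chi3l4* was not well above background in any heart, so no difference is given for it. *Chi3l1* (a chitinase-like protein linked to inflammation and tissue repair) was well above background in 4 of the 6 hearts, ND 1, ND 2, HFD 1 and HFD 3. Its level was −3.71, −3.54 and −4.40 in ND 1 to ND 3 and −3.93, −4.84 and −4.49 in HFD 1 to HFD 3. These ranges overlapped, and the probe was not fitted because neither diet had it above background throughout.

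*Retnla*, the resistin-like product of alternatively activated macrophages, was well above background throughout and did not share the pattern of *Chi3l3*. Its level was 1.81, 1.28 and 2.02 in ND 1 to ND 3 and 2.39, 1.31 and 2.23 in HFD 1 to HFD 3. The diets overlapped, with the lowest hearts of both diets almost level, and the log2 difference was 0.27 (SE 0.33). *Arg1*, which turns arginine into ornithine and urea, was not well above background in any of the 6 hearts. Of the 5 secreted products and enzymes in the set, *Chi3l3* and *Retnla* were therefore the ones well above background in all hearts.

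For the scavenger and mannose receptors, no HFD heart reached the level of any ND heart, and the differences were smaller than that of *Chi3l3*. *Lyve1* was at 1.88, 1.83 and 1.73 in ND 1 to ND 3 and at 1.55, 1.49 and 1.34 in HFD 1 to HFD 3, a log2 difference of −0.35 (SE 0.09). The diets were 0.18 apart, which exceeded the range among the ND hearts (0.15) and not that among the HFD hearts (0.21). *Mrc1* was at 1.76, 1.86 and 1.78 in the ND hearts and 1.70, 1.50 and 1.67 in the HFD hearts, a log2 difference of −0.17 (SE 0.08). Only 0.06 separated its lowest ND from its highest HFD heart.

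*Cd163* had the second largest difference, which rested in part on 1 heart. Its level was −3.25, −3.04 and −3.02 in ND 1 to ND 3 and −3.92, −5.21 and −3.47 in HFD 1 to HFD 3, and the probe was not well above background in HFD 2. The diets did not overlap, and the log2 difference was −1.10 (SE 0.43). Without HFD 2 it was −0.60 (SE 0.17), and with normexp or with the row of the slide as a block it was −0.37. HFD 1 and HFD 2 lay on row 1 of the slide and the other 4 arrays on row 2, so a row effect could be compared only through HFD 3. Within row 2 alone, HFD 3 against the 3 ND hearts, the log2 differences were −2.79 for *Chi3l3*, −0.37 for *Cd163* and −0.47 for *Lyve1*.

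The general macrophage markers differed little between the diets. *Emr1* encodes an adhesion receptor on the surface of mouse macrophages. Its first probe was at −0.15, −0.11 and 0.06 in the ND hearts and 0.07, −0.10 and 0.05 in the HFD hearts, a log2 difference of 0.07 (SE 0.09). Its second probe was at 0.84, 0.99 and 1.01 in the ND hearts and 0.98, 0.76 and 1.12 in the HFD hearts, a log2 difference of 0.01 (SE 0.11). Both probes overlapped between the diets, and the sign of the second probe turned in 3 of 15 alternative settings, down to −0.07. *Cd68*, a protein of macrophage lysosomes, was dim, at −4.51, −4.13 and −4.13 in ND and −3.98, −4.14 and −4.08 in HFD. Its diets overlapped too, with a log2 difference of 0.19 (SE 0.12).

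**Figure D1:**
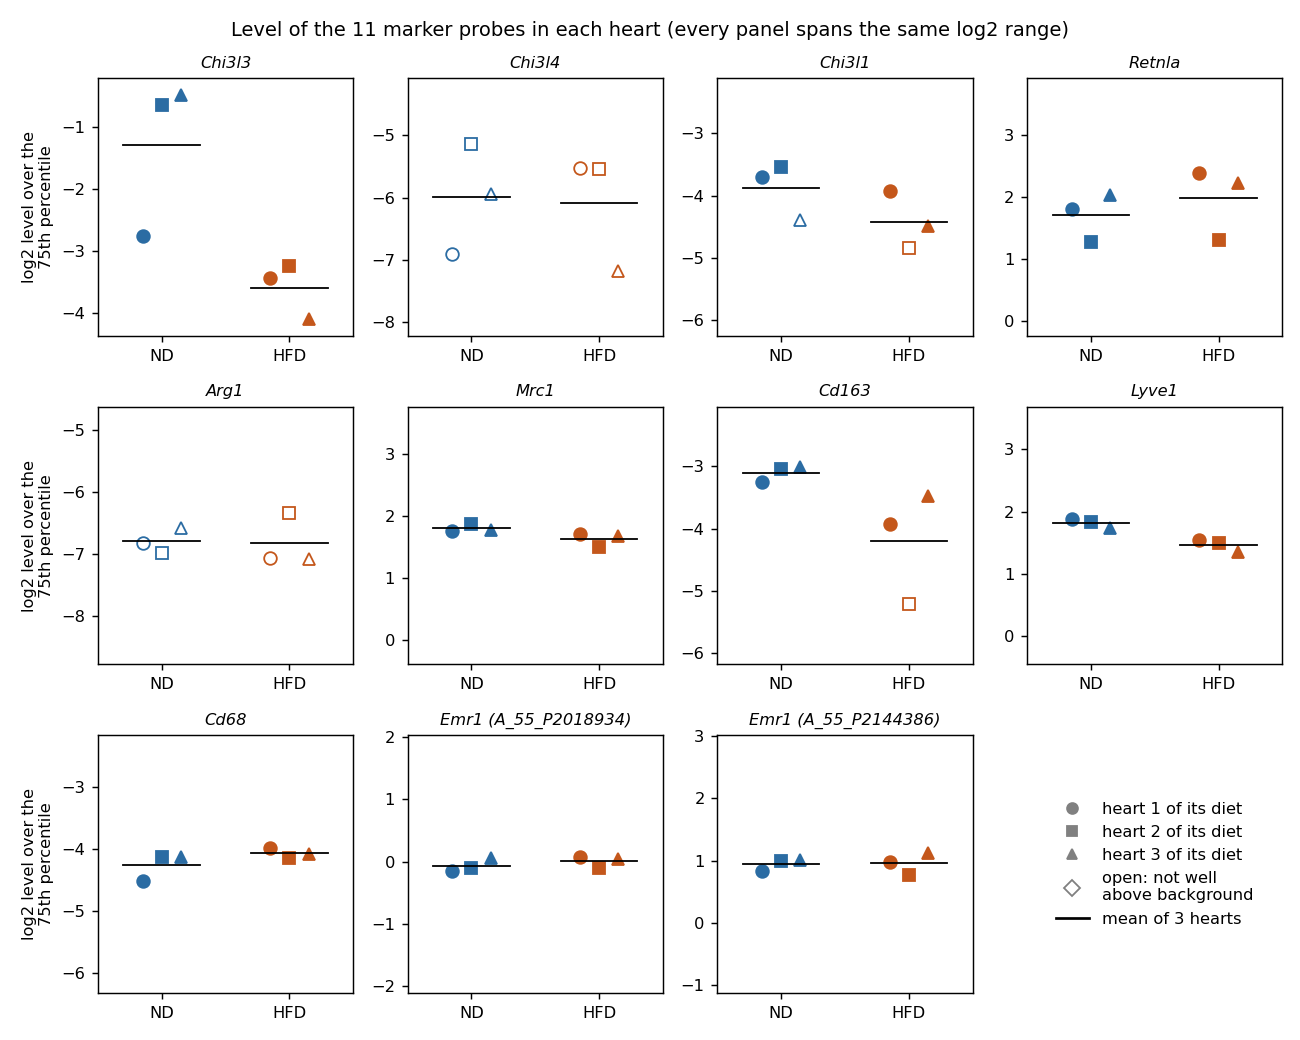
Log2 level over the 75th percentile of the array for the 11 marker probes in 3 ND (blue) and 3 HFD (orange) hearts, with open symbols where the probe was not well above background and a black line at the mean of the 3 hearts of a diet. Every panel spans the same log2 range but is centred on its own probe. *Chi3l3* shows the widest scatter, with ND 1 at −2.76 close to the HFD hearts, while *Lyve1* and *Mrc1* are tight in both diets.

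Across the set, 4 of the 8 fitted probes were lower and 4 higher in HFD, with a median log2 difference of −0.08, against −0.01 over all 27590 probes. None of the 8 passed the adjustment, where 0.0145% of all probes did. At an unadjusted p below 0.05 in limma, 3 of the 8 were counted, *Chi3l3*, *Cd163* and *Lyve1*, all lower, and the methods' t-test counted *Chi3l3* and *Lyve1*. Of all probes, 11.9% met that limit, 6.63% lower and 5.24% higher. The diets did not overlap for 4 of the 8, all lower, against 11.1% of all probes lower without overlap and 7.92% higher without overlap. *Cd163* entered these counts because it was well above background in all ND hearts, though not in HFD 2. Among the 7 probes well above background in all 6 hearts, 2 were at an unadjusted p below 0.05 in limma and 3 did not overlap. Because this contrast chose the set, nothing is read from these counts.

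**Figure D2:**
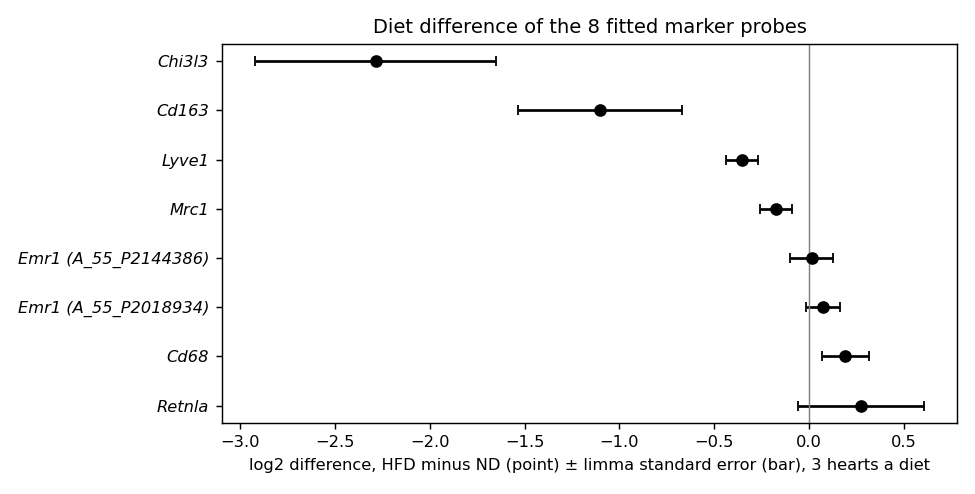
Log2 difference, HFD minus ND, of the 8 fitted marker probes (points) with the limma standard error (bars), 3 hearts in each diet. *Chi3l3* stands at −2.28 and *Cd163* at −1.10, *Lyve1* and *Mrc1* lie between −0.35 and −0.17, and the probes of *Emr1*, *Cd68* and *Retnla* lie at or above 0.

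Whether the macrophage markers follow *Chi3l3* was examined heart by heart, with each level set against the mean of its own diet. In ND 1, *Chi3l3* was 1.46 below the ND mean. The other 7 fitted probes deviated there by −0.25 (*Cd68*) to 0.11 (*Retnla*), and 5 of the 7 were below the mean. *Cd163*, *Cd68* and the second *Emr1* probe had the sign of *Chi3l3* in all 3 ND hearts, with deviations of at most 0.25 in size. Among the HFD hearts, *Chi3l3* deviated by 0.16, 0.34 and −0.51 in HFD 1 to HFD 3. *Cd163* deviated by 0.28, −1.01 and 0.73 and *Retnla* by 0.41, −0.66 and 0.25, so both had the sign of *Chi3l3* in HFD 1 and the opposite sign in HFD 2 and HFD 3. The same signs, with smaller deviations, were seen for *Mrc1* (0.08, −0.13 and 0.05) and both *Emr1* probes (0.06, −0.11 and 0.04, and 0.03, −0.19 and 0.17). *Cd68* had the opposite sign to *Chi3l3* in HFD 2 only, at 0.09, −0.08 and −0.01. *Lyve1* had the sign of *Chi3l3* in all 3 HFD hearts, with deviations of 0.09, 0.03 and −0.12. The spread of *Chi3l3* thus exceeded that of every other fitted marker among the ND hearts, but not that of *Cd163* and *Retnla* among the HFD hearts.

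**Figure D3:**
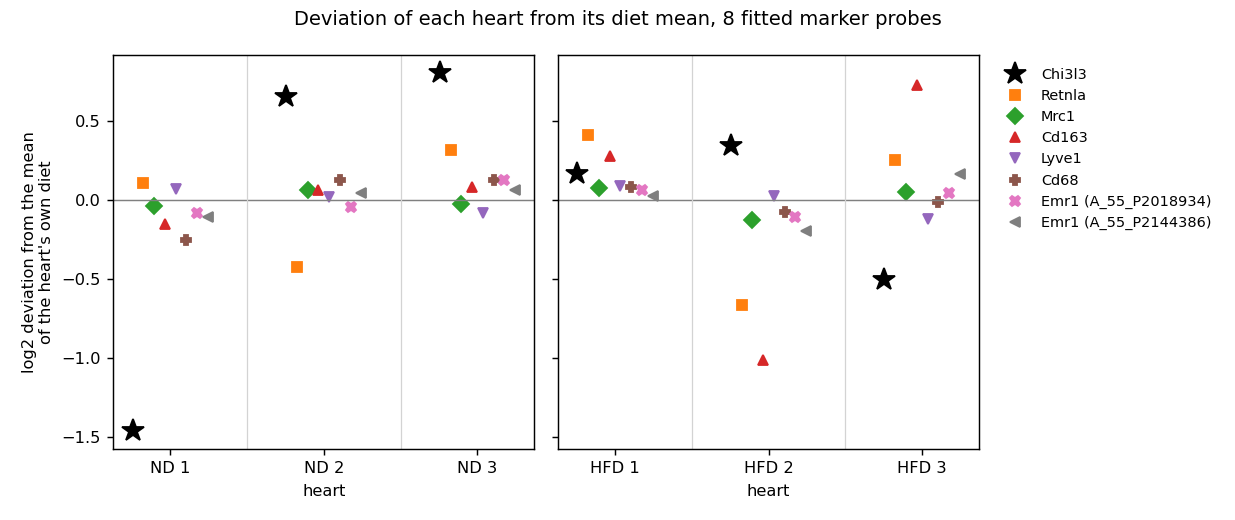
Log2 deviation of each heart from the mean of its own diet for the 8 fitted marker probes, ND hearts on the left and HFD hearts on the right. *Chi3l3* (black stars) lies at −1.46 in ND 1 while the other markers lie between −0.25 and 0.11. In HFD 2 and HFD 3 *Cd163*, *Retnla*, *Mrc1* and both *Emr1* probes lie on the other side of 0 from *Chi3l3*, and *Lyve1* on the same side.

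Over all 6 hearts, with the diet difference included, Pearson's r with *Chi3l3* was 0.71 for *Lyve1*, 0.66 for *Mrc1* and 0.54 for *Cd163*. It was 0.05 and −0.15 for the probes of *Emr1*, −0.08 for *Cd68* and −0.40 for *Retnla*. These are descriptions over 6 hearts in 2 diets, and the positive values contain the difference between the diets that chose *Chi3l3*. Among 2532 probes well above background in every heart and spanning at least 1 log2 unit, the named genes most like *Chi3l3* were the following. Of the other markers, only *Retnla* met these limits, so this ranking does not bear on whether they follow *Chi3l3*. The first were *Mtmr3* (a phosphatase of membrane phosphoinositides) with r of 0.96, *Cd59b* (an inhibitor of complement) with 0.95 and the probe named *Gm12839* with 0.94. *2410089E03Rik* (now *Cplane1*, a gene of cilia) with 0.94 and *Slc17a8* (a vesicular glutamate transporter) with 0.91 followed. *Mtmr3* was at −2.01, −1.26 and −0.80 in ND 1 to ND 3 and at −3.33, −2.86 and −3.50 in HFD 1 to HFD 3, which places ND 1 lowest among the ND hearts, as for *Chi3l3*. Since *Mtmr3* was picked for its likeness to *Chi3l3*, this shared order is no separate observation.

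Other macrophage genes were mostly slightly lower in HFD. Of 22 fitted genes of that list, 15 were lower and 7 higher, with a median log2 difference of −0.15, and none passed the adjustment. Without overlap, 9 were lower and 1 higher, against 11.1% and 7.92% of all probes. At an unadjusted p below 0.05, 4 were counted, all lower, against 6.63% of all probes lower at that limit. They included *Cx3cr1* (the fractalkine receptor) at −1.18 (SE 0.47), *Lyz1* (lysozyme) at −0.36 (SE 0.11) and *Fcgr3* (a receptor for antibody) at −0.27 (SE 0.08). *Cx3cr1* had the lowest difference in the list, from −0.61, −0.23 and 0.59 in ND 1 to ND 3 to −0.99, −2.16 and −0.65 in HFD 1 to HFD 3, with the highest HFD heart just under the lowest ND heart. *Aif1* (IBA1) had the highest difference, at 0.26 (SE 0.16), and overlapped between the diets. The complement genes *C1qa*, *C1qb* and *C1qc*, made by tissue macrophages, differed by −0.19, −0.13 and −0.17 without overlap. The summed level of the list, in multiples of the 75th percentile, was 117 to 122 in ND and 106 to 119 in HFD, lowest in HFD 2. Without HFD 2 the median of the list was −0.07, the count at an unadjusted p below 0.05 was 2 lower and 2 higher, and *Cx3cr1* was at −0.74. That count was also 2 lower without ND 1 or without ND 3 and 1 lower without ND 2. It was 3 lower and 1 higher without HFD 1, and 5 lower without HFD 3. The shares of all probes without each heart were not computed.

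The markers of cardiac resident macrophages were split in direction. Of 13 fitted genes, 9 were lower and 4 higher, with a median log2 difference of −0.08 and none past the adjustment. Without HFD 2, 5 were lower and 8 higher (median 0.01), without ND 3, 6 were lower and 7 higher (median 0.02), and the median was −0.19 without ND 1 and −0.21 without HFD 1. *F13a1*, a subunit of a clotting factor found in resident macrophages, was lower without overlap. It was at 3.46, 3.49 and 3.69 in ND and 3.24, 2.88 and 3.18 in HFD, a log2 difference of −0.44 (SE 0.12). *Clec10a*, a lectin for galactose sugars, had the highest difference at 0.72 (SE 0.30) and overlapped, and without HFD 3 this was 0.45. *Timd4*, which binds phosphatidylserine on dying cells, and *Folr2*, a folate receptor, overlapped at −0.15 (SE 0.31) and −0.14 (SE 0.16). Of 7 genes of monocyte-derived macrophages, 5 were higher and 2 lower. *Itgax* (CD11c) had the highest difference at 1.0 (SE 0.37) and *Plac8* the lowest at −0.53 (SE 0.35). *Ccr2*, the chemokine receptor of recruited monocytes, was at −0.37 (SE 0.29), and all 3 overlapped. The genes of antigen presentation in this list, *H2-Aa*, *H2-Ab1*, *H2-Eb1* and *Cd74*, were highest in HFD 3, and without that heart 1 of the 7 was higher in place of 5, and without ND 3 it was 3.

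The signals that drive alternative activation were only partly measured. Among the ligands, *Il4*, *Il13*, *Il25* and *Il10* were not well above background in any heart. Of the 3 fitted, *Il34*, a ligand of the receptor that keeps macrophages alive, was lower without overlap. It was at 0.09, 0.00 and −0.06 in ND and −0.61, −0.34 and −0.28 in HFD, a log2 difference of −0.42 (SE 0.11, limma adjusted p = 0.263). *Csf1*, the other ligand of that receptor, was at 0.10 (SE 0.14) by its brightest probe, with 2 of its 3 fitted probes lower, and *Il33* (an alarm cytokine) at −0.39 (SE 0.22), both with overlap. Among the 5 receptors, *Il4ra* was the highest at 0.30 (SE 0.27), although 1 of its 2 probes was lower, and *Il10ra* the lowest at −0.22 (SE 0.19). *Il13ra1*, a receptor chain for interleukin 13, was lower without overlap at −0.22 (SE 0.07), and the shared chain *Il2rg* higher without overlap at 0.17 (SE 0.07).

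Of 7 transcription regulators of this state, 5 were higher and 2 lower, with a median of 0.04 and none past the adjustment. *Stat6* itself was at 0.04 (SE 0.06) by its brightest probe. Its dimmer fitted probes were at 0.23 (SE 0.18) and, without overlap, at 0.29 (SE 0.09). *Klf4* had the highest difference at 0.39 (SE 0.14) without overlap, and *Irf4* the lowest at −0.52 (SE 0.29) with overlap. *Pparg* was at 0.11 (SE 0.11) and *Ppard* at −0.17 (SE 0.06), the latter lower without overlap. Other targets of the pathway split evenly, 3 higher and 3 lower of 6 fitted. *Ccl17*, a chemokine, had the highest difference at 0.88 (SE 0.17, limma adjusted p = 0.195), but was well above background in only 1 of the 3 ND hearts. *Clec7a* (dectin-1, a receptor for fungal glucans) had the lowest difference, from −0.87, −0.76 and 0.05 in ND to −1.57, −1.47 and −1.17 in HFD, a log2 difference of −0.88 (SE 0.26). *Cd209a*, a lectin, was higher without overlap at 0.82 (SE 0.25). The targets outside the set were thus divided in direction.

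Among the genes of classical activation, more were higher than lower. Of 10 fitted genes, 7 were higher and 3 lower, with a median log2 difference of 0.33, and none passed the adjustment. *Cxcl9*, a chemokine brought on by interferon gamma, was at 0.16, 0.19 and 0.14 in ND and 0.64, 0.63 and 0.99 in HFD, a log2 difference of 0.59 (SE 0.11, limma adjusted p = 0.191), without overlap. *Ptgs2*, the cyclooxygenase of inflammation, had the highest difference at 1.06 (SE 0.66) and overlapped, and *Cd80*, a costimulatory molecule, the lowest at −0.28 (SE 0.09). At an unadjusted p below 0.05, *Cxcl9* was counted among the higher genes and *Cd80* lower. The median of the list was 0.16 without HFD 2 and 0.20 without ND 3.

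Relatives of the set were mostly lower or too dim to measure. Among 3 fitted genes of the wider chitinase family, *Ovgp1* (oviductal glycoprotein) was at −0.56 (SE 0.16) and *Chid1* at −0.21 (SE 0.08), both lower without overlap, and *Ctbs* was at 0.06 (SE 0.15). *Chit1*, the chitinase of macrophages, was well above background in ND 2 alone. Of the resistin family, *Retn* was at −0.76 (SE 0.83) with overlap and lowest in HFD 2, without which it was at 0.16. Of 6 fitted genes of arginine metabolism, 5 were lower. *Ass1*, which with *Asl* rebuilds arginine from citrulline, had the lowest difference at −0.43 (SE 0.12), and *Odc1*, of polyamine synthesis, the only value above 0 at 0.03 (SE 0.12), with 1 of its 4 probes lower. *Arg2* was not well above background in any heart.

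**Figure D4:**
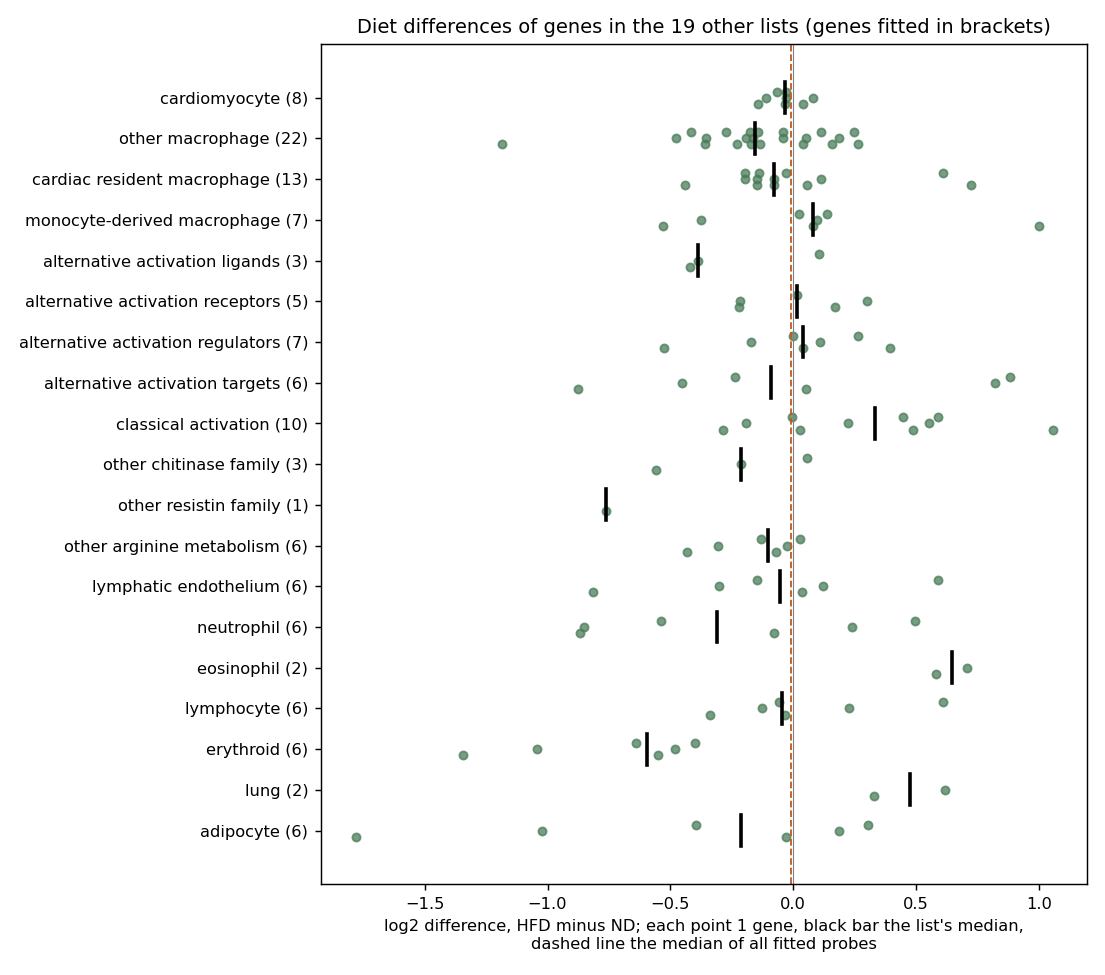
Log2 difference, HFD minus ND, of each fitted gene in 19 lists of related genes and other cell types (points), with the median of each list (black bar) and the median of all fitted probes (dashed line, −0.01). The erythroid genes all lie below 0 with a median of −0.60, classical activation genes have a median of 0.33, and the other macrophage list has a median of −0.15.

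Markers of other cells that can hold the same transcripts were read beside the set. Erythroid genes were lower in HFD in 6 of 6 fitted cases without overlap, against 11.1% of all probes, with a median of −0.60. None passed the adjustment. *Ahsp*, which steadies free globin chains, had the lowest difference at −1.35 (SE 0.39), and *Hba-a1* the smallest at −0.40 (SE 0.16). The count at an unadjusted p below 0.05 was 5, where 6.63% of all probes were lower at that limit, and it was 2 without HFD 3. Their summed level was 622 to 798 multiples of the 75th percentile in ND and 399 to 554 in HFD. Markers of blood were thus lower in these HFD hearts, and their part in the differences of *Chi3l3* and the receptors was not tested. The mean erythroid log2 level was 3.58, 4.31 and 3.64 in ND 1 to ND 3. In HFD 1 to HFD 3 it was 3.23, 3.22 and 2.84. HFD 3 was lowest among the HFD hearts, as for *Chi3l3*. ND 1 was lowest among the ND hearts but nearly level with ND 3, whereas *Chi3l3* was far lower in ND 1 than in ND 3. The highest hearts were ND 2 and HFD 1, against ND 3 and HFD 2 for *Chi3l3*.

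*Chi3l3* is also made by developing neutrophils. Of 6 fitted neutrophil genes, 4 were lower and 2 higher. *S100a9*, of neutrophil calprotectin, had the lowest difference at −0.87 (SE 0.83). It was at 2.37, 2.26 and 0.10 in ND 1 to ND 3 and 1.20, 1.59 and −0.67 in HFD 1 to HFD 3, with its lowest ND heart where *Chi3l3* was highest and its lowest HFD heart where *Chi3l3* was also lowest. The part of neutrophils in the level of *Chi3l3* was not tested. *Lcn2*, an iron-binding protein of neutrophils and stressed tissue, was lower without overlap at −0.54 (SE 0.10, limma adjusted p = 0.170). *Elane*, a protease of neutrophil granules, had the highest difference at 0.50 (SE 0.20), and *Mpo*, of the same granules, was not well above background in any heart. The surfactant genes *Sftpc*, *Sftpb* and *Sftpa1*, which mark lung, where *Chi3l3* and *Retnla* are abundant, were not well above background in any heart. Of that list, only *Sftpd* at 0.62 (SE 0.37) and *Marco* at 0.33 (SE 0.30) were fitted.

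*Retnla* is also expressed in fat tissue. The mean log2 level of 6 adipocyte genes was −0.33, 0.28 and 0.39 in ND 1 to ND 3 and 1.07, −2.06 and −0.04 in HFD 1 to HFD 3. HFD 1 was thus highest and HFD 2 lowest, as for *Retnla* among the HFD hearts. Among the ND hearts both were highest in ND 3, but ND 1 was lowest for the adipocyte genes and ND 2 for *Retnla*. The part of fat tissue in the level of *Retnla* was not tested. *Cfd* had the lowest difference at −1.78 (SE 1.21) and *Pck1* the highest at 0.30 (SE 0.68), and the median of the list turned from −0.21 to 0.36 without HFD 2. Of 6 lymphatic genes, read beside *Lyve1*, 3 were lower and 3 higher. *Prox1*, the regulator of lymphatic identity, was higher without overlap at 0.59 (SE 0.11, limma adjusted p = 0.158), *Flt4* was at −0.30 (SE 0.13), and *Stab2* had the lowest difference at −0.81 (SE 0.34). Of the eosinophil genes, *Ear1* and *Ear2* were at 0.71 (SE 0.25) and 0.58 (SE 0.33), and *Prg2* and *Epx* were not well above background in any heart. Of 6 lymphocyte genes, 4 were lower and 2 higher, from −0.34 (*Cd79b*) to 0.61 (*Cd3d*), and without HFD 1, 2 were lower and 4 higher.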

How the data were processed

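RNA of 3 ND and 3 HFD mouse hearts was read on 6 Agilent arrays of 1 slide (1 colour). The authors deposited spot intensities from Agilent Feature Extraction 10.7.1.1, background-subtracted within each array and not normalized between arrays. The deposited mean and background intensities served only normexp (offset 50). A series table of log2 values was deposited too, and its making is not given in the sources used here. By rank, each of its columns matched its own array (Spearman's rho at least 0.9999 over the probes, against at most 0.954 for any other array), and every column's median was 4.56, so genes were not centred. The log2 values matched quantile-normalized log2 intensities (median difference at most 0.000197). It served as an alternative. Gene names come from the array's design, and all 10 genes matched RefSeq, 9 by accession and *Cd68* by symbol.

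Control spots and 127 to 190 outlier spots per array were left out, spots of a probe were averaged, and the log2 intensity minus the 75th percentile was used. Probes well above background in all hearts of at least 1 diet, and measured in at least 2 hearts of each, were fitted with limma 3.58.1 (lmFit, eBayes, two-sided) in R 4.3.3 with data.table (version 1.17.8), jsonlite 2.0.0 and statmod 1.5.0. Sequences and figures used Python 3.11.15, pandas 2.3.3, Biopython 1.88 and matplotlib 3.10.9. Every member was named. From the other 19 lists (171 genes, 1 probe per gene, the brightest), counts and the genes with the largest rise and fall were named, with the 5 genes most like *Chi3l3*. Further list genes were named after their values were seen. The separate results of 2 list genes are not reported here. The members and lists were chosen with earlier results of these data known. Alternatives were other normalizations and background corrections, filters on dim probes, the authors' values, robust variances with an intensity trend, the methods' t-test, blocks for replicate number and slide row, row 2 alone, outlier spots kept, averaged probes and each heart left out. The counts of the lists without HFD 2 and of single list genes were added after seeing the data. The code was tested on simulated data.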

Additional observations from a re-analysis of the deposited data

How the results depend on the processing

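*Chi3l3* was lower in HFD in all 16 settings that gave it a value, from −3.02 without ND 1 to −1.42 with normexp. Some of these left its value unchanged at −2.28, namely the filters on dim probes, the replicate block, outlier spots kept and averaged probes. With each heart left out in turn it ranged from −3.02 to −1.88. No member passed the adjustment in any of 18 settings, and leaving out a heart gave 2 to 3 members at an unadjusted p below 0.05 and 4 to 6 without overlap, of 8 or 9 fitted. The shares of all probes were not computed without each heart, and with fewer hearts diets fail to overlap more easily. Nothing is therefore read from these counts. Without the filter on dim probes, 7 of 11 members were lower, since the dim *Chi3l1*, *Chi3l4* and *Arg1* probes entered. Within row 2, a single HFD heart was set against 3, so only log2 differences are given for that setting. *Retnla* and *Cd68* were higher in 15 of 15 settings (0.06 to 0.61 and 0.04 to 0.25), and *Mrc1* lower in 15 of 15 (−0.21 to −0.11). Here too the filters, the replicate block and outlier spots kept left the values unchanged. *Lyve1* ranged from −0.47 to −0.30 and *Cd163* from −1.47 to −0.37. With the replicate block, 3 members were again at an unadjusted p below 0.05. In this balanced design the block changes neither the log2 differences nor the overlap, so the counts of these could not differ. The labels do not say whether the numbers pair the hearts. The correlations of same-numbered deviations were −0.154, 0.147 and 0.19, against −0.302 to 0.19 for the other pairs. With 3 hearts a diet, these values cannot decide whether the hearts were paired. The levels of *Cd68*, *Chi3l1* and, in HFD hearts, *Cd163* and *Chi3l3* lay near the lowest levels well above background (−4.95 to −4.50), which limits the precision of their differences.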
